A study of Mus musculus with 4 samples.

Results

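The genes described here are the AP-1 and immediate early transcription factors Fos, Fosb, Fosl1, Fosl2, Jun, Junb, Jund, Atf3, Egr1 and Myc. They were chosen by symbol among the probe sets that name 1 gene: 10 genes of 18193 on the array, covered by 14 probe sets. RNA came from mouse embryonic fibroblasts (MEFs), cells cultured from C57BL/6 embryos, that were wild type (FAN +/+) or lacked FAN (FAN -/-). FAN is the product of Nsmaf and docks on the TNF receptor as an adaptor. Untreated cells of each genotype spent 24 h in DMEM without serum. Treated cells spent 8 h without serum and then 16 h with tumour necrosis factor (TNF, 50 ng/ml), also without serum. Serum deprivation is therefore common to all 4 groups, and the 16 h time point is the only one. Total RNA of each condition was hybridised to 1 Affymetrix whole-genome mouse array. No condition had a replicate.

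AP-1 is a dimer of basic leucine zipper proteins. Proteins of the FOS family must pair with a JUN protein to bind DNA, whereas JUN proteins can also pair with each other, and the make-up of the dimer sets which genes it acts on. Many of these genes are immediate early genes, transcribed within minutes of a stimulus from factors already in the cell and then shut off, while Fosl1 is known to follow later and to be itself under AP-1 control. TNF reaches AP-1 mainly through the JNK and p38 MAP kinases, and in fibroblasts AP-1 is best known for driving matrix metalloproteinase and cytokine genes.

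The promoter stretches of FOS and JUN genes with a match to a cyclic AMP element core or an AP-1 type element are shown first. Fos and Fosb had lower values together with TNF, and Jun is the classical case of an AP-1 gene bound by its own family. The part of such matches in the array values was not tested. Windows of 7 of the 10 genes were searched in RefSeq's promoter table (assembly GRCm38.p6, 250 bases before to 50 after the start site). Fosl1 and Myc have no window there, and the chromosome of Egr1 was left out for these genes. Counts for the 7 genes therefore do not cover Egr1, whereas shares over all windows leave out no chromosome. Capitals mark the TGACG core of the cyclic AMP response element in Fos, Fosb and Junb, and the element TGACATCA in Jun; each stretch is written 5′ to 3′ on the gene's strand. The Fos stretch is chr12:85473640-85473889 (plus strand), the Jun stretch chr4:95052223-95052472 (minus strand), and the 30-base pieces of Fosb and Junb are chr7:19310088-19310117 and chr8:84978837-84978866 (both minus strand).
Fos: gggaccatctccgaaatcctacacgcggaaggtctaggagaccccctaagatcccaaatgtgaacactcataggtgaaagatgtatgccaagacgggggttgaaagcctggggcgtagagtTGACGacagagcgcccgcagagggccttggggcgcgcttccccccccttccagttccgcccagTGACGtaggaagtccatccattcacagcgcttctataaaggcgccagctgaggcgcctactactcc
Jun: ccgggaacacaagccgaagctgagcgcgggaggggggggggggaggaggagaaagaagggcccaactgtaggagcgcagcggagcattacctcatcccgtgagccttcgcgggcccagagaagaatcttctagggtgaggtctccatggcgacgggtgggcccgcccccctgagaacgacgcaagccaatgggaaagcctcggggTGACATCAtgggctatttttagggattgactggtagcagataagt
Fosb: tggagttgcgggTGACGcaagcgcgggggc
Junb: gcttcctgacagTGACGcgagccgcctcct

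TGACG, searched on both strands, was found in the windows of 4 of the 7 genes (Fos, Fosb, Junb and, on the opposite strand, Atf3), against 20.8% of all 32851 windows in the table. It began 66 and 129 bases before the start site in Fos, 60 bases in Fosb and 106 bases in Junb. TGACATCA was found in Jun only, 45 bases before the start site, against 3.62% of all windows. The classical AP-1 element TGACTCA (5.2% of windows) and the full cyclic AMP response element TGACGTCA (1.79%, a sequence that contains TGACG), searched in the same way, were in none of the 7 windows. These matches describe letters in the window and do not show that a factor is bound there.

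Array medians lay between 6.21 and 6.30 log2, and a floor at the 50th percentile of all values (6.27 log2) was set for low signals. The genotype entry of 2 of the 4 samples disagrees with the title, and groups follow the titles; by those entries both untreated arrays would be wild type and both TNF arrays knockout. Nsmaf gave log2 values of 8.95 untreated and 8.55 with TNF in wild-type cells, against 7.91 and 7.48 in FAN -/- cells, the direction the titles imply; the deleted part of the gene is not known here, and a probe set outside that part would check nothing. The TNF-induced NF-kB inhibitor genes Nfkbia and Tnfaip3 were higher on both TNF arrays, Tnfaip3 by 13.6-fold in wild-type and 14.7-fold in FAN -/- cells. All 7 fibroblast markers, among them Col1a1 and Vim, lay above the floor on every array. Markers of other cell types were mixed. The leukocyte genes Ptprc, Cd68 and Adgre1, the endothelial genes Pecam1 and Cdh5, the epithelial genes Cdh1 and Krt18 and the muscle genes Myod1, Myog and Myh3 lay below the floor on all 4. The other markers of those lists lay above it on all 4: 3 of 6 leukocyte genes (Csf1r, Lyz2 and Laptm5), 2 of 4 endothelial genes (Kdr and Tek), 2 of 4 epithelial genes (Krt8 and Epcam, the latter at 9.05 to 9.25 log2) and 1 of 4 muscle genes (Des). Summed signals ran from 331 to 387 for the endothelial list and from 678 to 756 for the epithelial list, and were 248 and 259 on the wild-type against 329 and 355 on the knockout arrays for the muscle list. In a bulk sample, fewer cells of a type and less RNA per cell cannot be told apart, and the genotype and the cell preparation cannot be told apart either.

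After 16 h of TNF, Fosl1 and Myc had higher values and Fos and Fosb lower values in both genotypes, while Fosl2, Junb, Jund, Atf3 and Egr1 differed by at most 0.40 log2 between treatments in either genotype. For 1 array against 1 there is no test. The words "higher" and "lower" are said of single arrays, unless a limma call or estimate comes with them. "Rose" and "fell" refer to an additive limma fit of genotype and TNF. There each level of a factor is held by 2 arrays, the error rests on 1 residual degree of freedom, p-values are adjusted over 11817 genes (Benjamini-Hochberg), and a response that differs between genotypes counts as error. In that fit Fosl1 and Myc rose and Fos fell with TNF, and Atf3 was higher in FAN -/- cells. Of the 7 fibroblast markers 1 fell with TNF, Thy1 (-0.82 log2, limma adjusted p = 0.0498), and 0 rose, where 1.14% and 1.57% of all genes fitted did. The part of Thy1 in these results was not tested. Of the 10 genes 0 differed by 2-fold or more between genotypes untreated, where 4.34% of 12224 genes above the floor did, and 0 with TNF (4.19%).

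**Figure D1:**
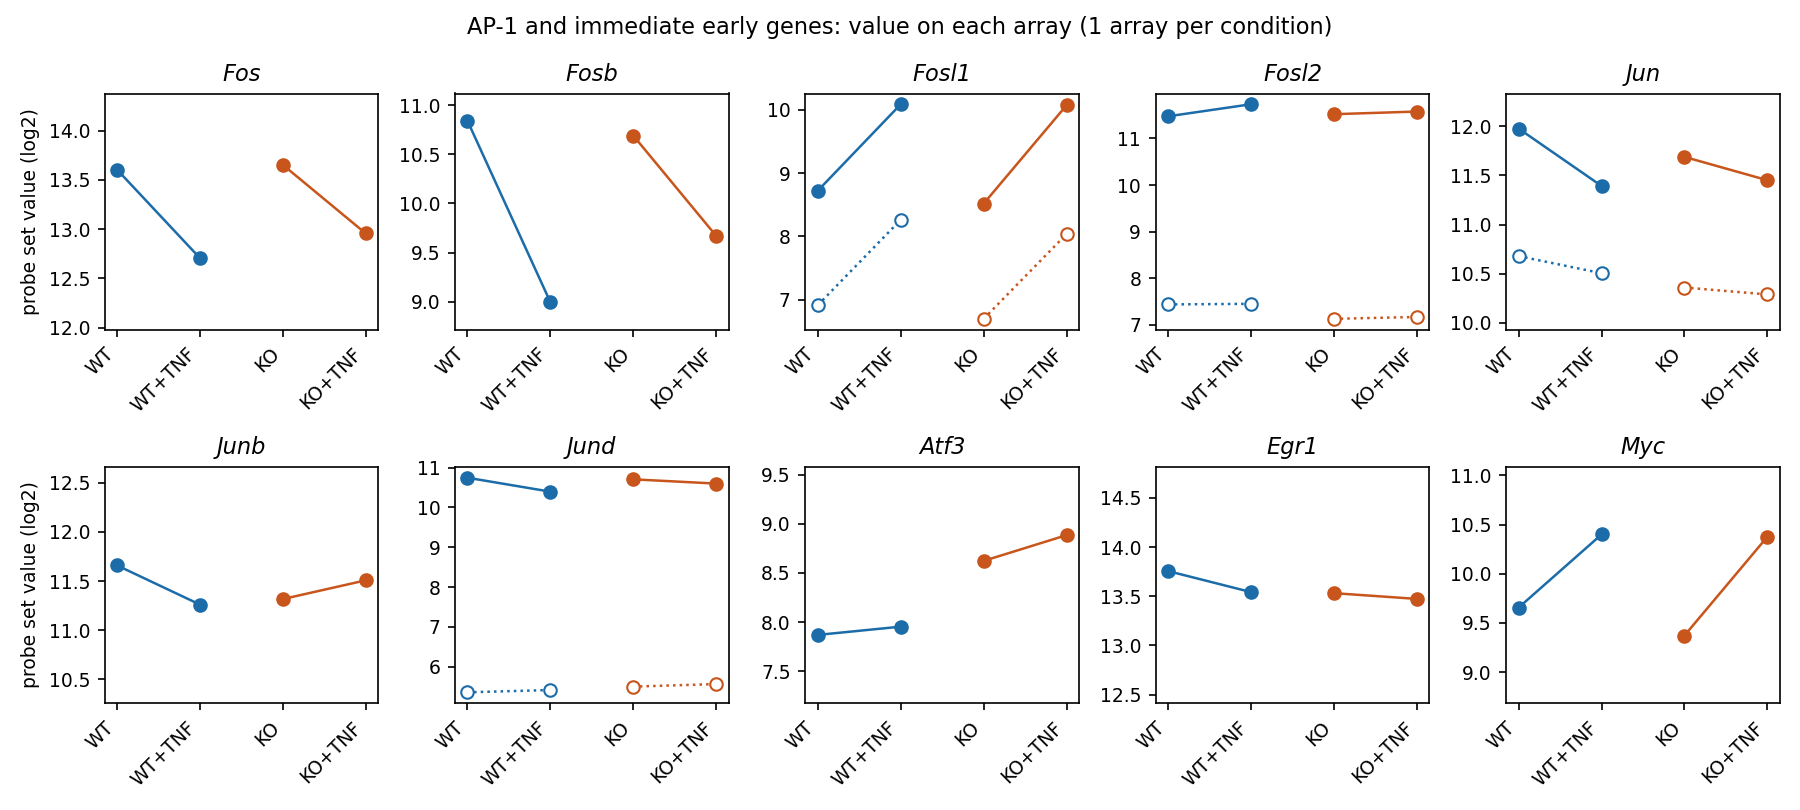
Log2 probe set value (y axis, a scale for each gene) on each of the 4 arrays (x axis: WT, wild type; KO, FAN knockout) for the 10 genes; filled points and solid lines are the probe set used for the gene, open points and dotted lines a second probe set, and there are no error bars because each condition has 1 array. Both probe sets of Fosl1 are higher with TNF, Fos and Fosb are lower in both genotypes, and Atf3 lies higher on both knockout arrays.

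Among the FOS family, Fosl1, which encodes FRA-1, a member that lacks a strong activation domain of its own, gave 8.72 log2 untreated and 10.09 with TNF in wild-type cells, and 8.52 and 10.07 in FAN -/- cells. Both TNF values lay above both untreated values, and the TNF values of the genotypes were 0.02 log2 apart. Fosl1 was 2.58-fold higher with TNF in wild-type and 2.94-fold higher in FAN -/- cells. Of 12224 genes above the floor, 253 were at least as far apart in wild-type cells, and 103 in FAN -/- cells. In the additive fit it rose by 1.46 ± 0.11 log2 (SE, limma adjusted p = 0.016). A second, dimmer probe set of Fosl1 went from 6.91 to 8.26 log2 in wild-type and from 6.70 to 8.04 in FAN -/- cells, a fold of 2.55 and 2.53.

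Fos, whose protein c-FOS is the founding partner of JUN, gave 13.60 log2 untreated and 12.71 with TNF in wild-type cells, and 13.65 and 12.96 in FAN -/- cells. The TNF values lay below the untreated values in both genotypes, by 1.87-fold in wild-type and 1.62-fold in FAN -/- cells. The additive fit gave a fall of -0.80 ± 0.08 log2 (SE, limma adjusted p = 0.025). Untreated Fos lay 0.74 log2 below the maximum of its array, and whether the upper end of the array's range compressed this difference was not tested. The call was lost without the intensity trend in the variance prior (limma adjusted p = 0.052).

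Fosb, a close relative of Fos, gave 10.84 log2 untreated and 9.00 with TNF in wild-type cells, and 10.69 and 9.67 in FAN -/- cells. It was 3.59-fold lower with TNF in wild-type and 2.03-fold lower in FAN -/- cells, the largest difference with TNF of the 10 genes on the wild-type arrays. Both TNF values lay below both untreated values, but it did not pass the additive fit (-1.43 ± 0.22 log2, SE, limma adjusted p = 0.055), which counts the 0.82 log2 between the responses as error. With each array centred on its median it passed (-1.46 log2, limma adjusted p = 0.0021). It also passed with quantile normalization and with a floor at the 70th percentile (limma adjusted p = 0.045 and 0.025). It did not pass with a floor at the 30th percentile or with no floor (limma adjusted p = 0.0778 and 0.0984). Nor did it with the mean of probe sets, without the trend or with all probe sets fitted (limma adjusted p = 0.13, 0.0662 and 0.0765). Fosl2, which encodes FRA-2, lay between 11.47 and 11.73 log2 on the 4 arrays, and its second, dimmer probe set between 7.13 and 7.45.

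The TNF responses of the FOS genes thus differed in sign within the family. On the wild-type arrays 1 of the 10 genes was at least 2-fold higher (Fosl1), where 2.2% of all 12224 genes were, and 1 was at least 2-fold lower (Fosb), where 1.92% were. On the knockout arrays 2 were at least 2-fold higher (Fosl1 and Myc; 1.35% of all genes) and 1 lower (Fosb; 1.07%). The median response of the 10 genes was -0.28 log2 in wild-type and -0.00074 in FAN -/- cells, beside -0.03 and 0.01 over all genes.

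**Figure D2:**
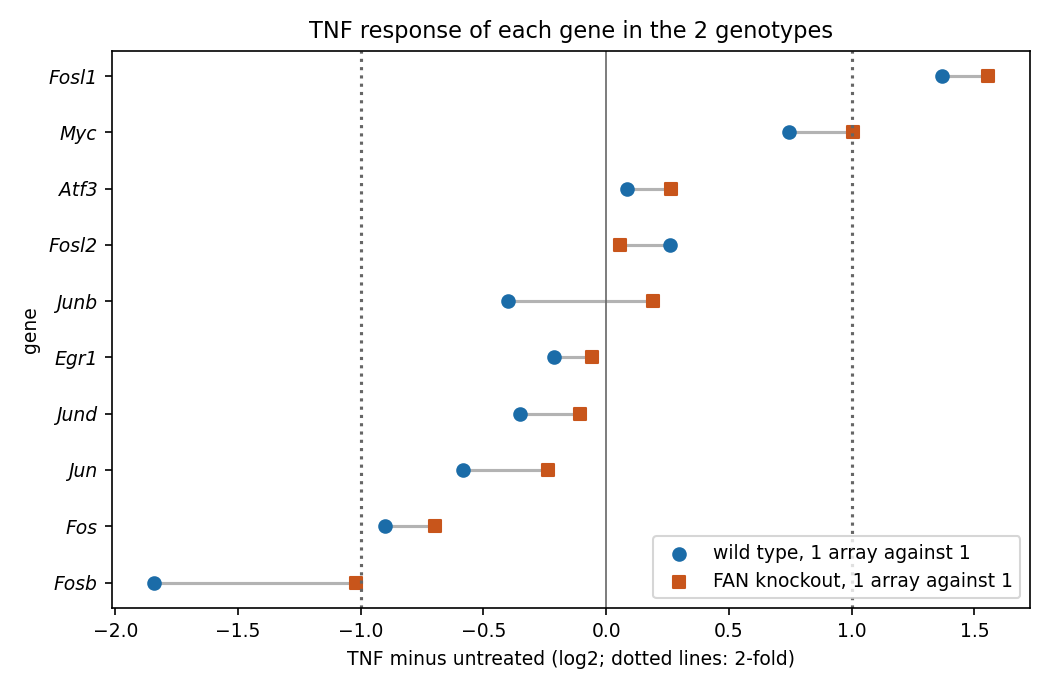
TNF minus untreated log2 value (x axis) of each gene (y axis) in wild-type cells (circles) and FAN knockout cells (squares), each point 1 array against 1 with no error bar, and dotted lines at a 2-fold difference. Fosb and Fosl1 lie at or beyond 2-fold in both genotypes, Myc in FAN -/- cells (1.0 log2), and Junb is the gene whose points lie on opposite sides of 0.

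Of the 3 JUN genes 0 were 2-fold apart between treatments in either genotype. Differences of that size were rare on the whole array. With TNF, 2.2% of 12224 genes passed this limit upwards and 1.92% downwards in wild-type cells. In FAN -/- cells the shares were 1.35% and 1.07%. Against such shares, 0 of 3 is no result about the JUN genes and no contrast with the FOS genes. Jun, which encodes the strongest activator of the family, gave 11.98 log2 untreated and 11.39 with TNF in wild-type cells, and 11.69 and 11.45 in FAN -/- cells. It was 1.5-fold lower with TNF in wild-type and 1.18-fold lower in FAN -/- cells, and did not pass the fit (-0.41 ± 0.11 log2, SE, limma adjusted p = 0.17). Its second probe set showed a smaller difference of the same sign, -0.17 and -0.07 log2.

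Junb, a JUN protein often described as restraining c-JUN, gave 11.66 log2 untreated and 11.26 with TNF in wild-type cells, and 11.32 and 11.51 in FAN -/- cells. The wild-type response was -0.40 log2 and the knockout response 0.19 log2, so the genotypes lay on opposite sides. That difference of 0.59 log2 could not be tested, because 4 arrays cannot also carry an interaction term. Jund, expressed steadily in most cells, lay between 10.40 and 10.74 log2, and its second probe set lay below the floor on all 4 arrays.

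Myc, which pairs with MAX and drives growth and ribosome production, gave 9.66 log2 untreated and 10.40 with TNF in wild-type cells, and 9.37 and 10.38 in FAN -/- cells. It was 1.67-fold higher with TNF in wild-type and 2.01-fold higher in FAN -/- cells, with both TNF values above both untreated values. In the additive fit Myc rose by 0.87 ± 0.11 log2 (SE, limma adjusted p = 0.042). The call was close to the threshold: it was lost with a floor at the 30th percentile, with no floor, and when all probe sets were fitted (limma adjusted p = 0.059, 0.075 and 0.059).

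Egr1, a zinc finger factor and a standard immediate early gene, lay between 13.47 and 13.76 log2 on the 4 arrays, within 0.58 log2 of the top of the array at its highest. Its value with TNF differed by -0.21 log2 in wild-type and -0.06 in FAN -/- cells and did not pass (limma adjusted p = 0.40). Whether its closeness to the upper limit hid a difference was not tested.

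Atf3, a stress-induced factor that binds the same kind of element and can repress it, differed by genotype, while its TNF effect did not pass. It gave 7.87 log2 untreated and 7.95 with TNF in wild-type cells, against 8.62 and 8.88 in FAN -/- cells. Both knockout values lay above both wild-type values, 1.68-fold without and 1.91-fold with TNF. The additive fit gave a genotype difference of 0.84 ± 0.12 log2 (SE, limma adjusted p = 0.032) and a TNF effect of 0.17 ± 0.12 log2 (limma adjusted p = 0.50). Cell type markers also differed by genotype. Of the 7 fibroblast markers 2 were lower in FAN -/- cells, Pdgfra and Dcn (-1.62 and -1.64 log2, limma adjusted p = 0.011 and 0.035), and 0 were higher (5 of the 7 had an unadjusted p under 0.05). Of all genes fitted 3.67% were lower and 2.94% higher, and 2899 of 11817 had an unadjusted p under 0.05. Thy1 had the sign opposite to Pdgfra and Dcn (0.50 log2, limma adjusted p = 0.088), and Col1a2 and Vim lay near 0 (-0.05 and 0.04 log2). Of the muscle markers Des was higher (0.76 log2, limma adjusted p = 0.034). The summed signal of the 6 leukocyte markers, 3 of them above the floor and Ptprc below it, was 595 and 839 on the wild-type arrays and 1334 and 829 on the knockout arrays. The part of these markers in the Atf3 difference was not tested.

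**Figure D3:**
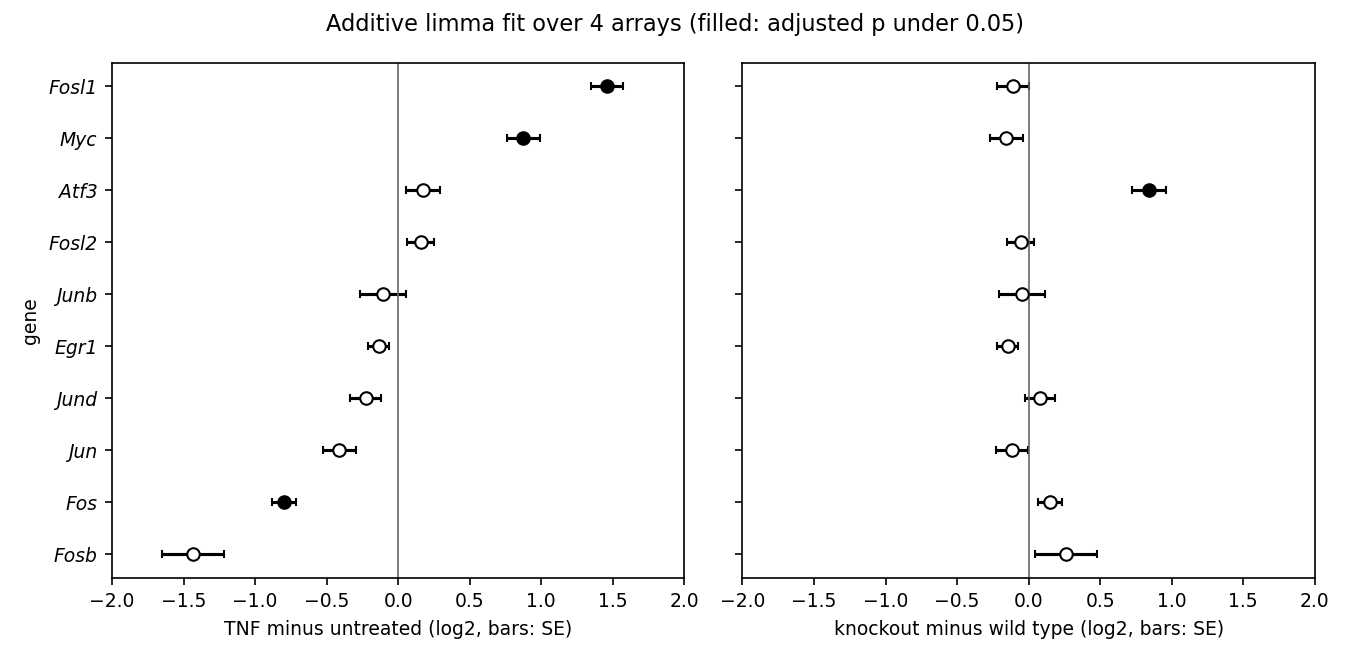
Estimates of the additive limma fit over 4 arrays for each gene (y axis), with TNF minus untreated on the left and knockout minus wild type on the right (x axis, log2); bars are 1 SE and filled points have an adjusted p under 0.05. For TNF the filled points are Fosl1, Myc and Fos, and for genotype Atf3.

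In all, 2 of the 10 genes rose with TNF (limma; 1.57% of the 11817 genes fitted did) and 1 fell (1.14%). By genotype 1 was higher in FAN -/- cells (2.94% of all genes) and 0 lower (3.67%; 0 also at an unadjusted p under 0.05, where 13.3% of all genes were lower). With the mean of all probe sets of a gene in place of the brightest, 0 of the 10 passed for TNF and 0 for genotype (4 and 1 at an unadjusted p under 0.05). Fos, Myc and Atf3 have 1 probe set each, so their estimates could not change there and the adjusted p alone did (limma, 0.079, 0.097 and, for Atf3 by genotype, 0.057). The estimate of Fosl1 was 1.40 log2 (limma adjusted p = 0.063), and 0 of 11822 genes passed for TNF (2107 at an unadjusted p under 0.05).

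The response in FAN -/- cells was the higher or less negative one for 9 of the 10 genes, Fosl2 being the exception, with a median difference of responses of 0.22 log2. Over all 12224 genes 59.9% lay on that side, and the median was 0.05. None of the 10 differences reached 2-fold (1.61% of all genes did), the largest being Fosb at 0.82 log2 and Junb at 0.59. They were not tested.

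Genes that share the basic leucine zipper or pair with AP-1 were next. Of 17 fitted AP-1 and bZIP partner genes, 1 rose with TNF and 0 fell, where 1.57% and 1.14% of all genes fitted did. It was Maff, a small MAF protein without an activation domain, which went from 9.00 to 9.89 log2 in wild-type and from 8.58 to 9.90 in FAN -/- cells (1.10 ± 0.15 log2, SE, limma adjusted p = 0.043). Of the C/EBP genes, which encode factors of the inflammatory response, Cebpd was 2.19-fold higher with TNF in wild-type and 1.25-fold in FAN -/- cells, and Cebpb 1.42-fold and 1.44-fold, neither passing (limma adjusted p = 0.17 and 0.054). By genotype 2 were lower in FAN -/- cells and 0 higher, where 3.67% and 2.94% of all genes fitted were. The 2 were Maf (-1.40 log2, limma adjusted p = 0.012) and Cebpb (-0.52 log2, limma adjusted p = 0.035). The median TNF response of the list was 0.01 log2 in wild-type and -0.04 in FAN -/- cells, near that of all genes.

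Of 23 other immediate early genes, all fitted, 3 rose with TNF and 2 fell, beside the same 1.57% and 1.14% of all genes. The genes that rose were Ier3, a survival gene under NF-kB control (0.85 log2, limma adjusted p = 0.018), Klf10, a zinc finger gene known for its induction by TGF-beta (1.42 log2, limma adjusted p = 0.048) and Maff, which is on both lists. Those that fell were the zinc finger gene Klf2 (-1.11 log2, limma adjusted p = 0.031) and the orphan nuclear receptor Nr4a1 (-0.65 log2, limma adjusted p = 0.046). Arc, best known as an activity-regulated gene of neurons, was 3.80-fold lower with TNF in wild-type and 1.80-fold lower in FAN -/- cells without passing (limma adjusted p = 0.093). By genotype Nr4a2, another orphan nuclear receptor gene, alone was called, lower in FAN -/- cells (-0.77 log2, limma adjusted p = 0.034). Of all genes fitted, 3.67% were lower by genotype and 2.94% higher. As among the 10 genes, calls in this list went both ways, and its median TNF difference was -0.06 log2 for wild-type and 0.06 in FAN -/- cells.

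Of 11 fitted MAP kinase genes 0 passed for TNF in limma and 3 had an unadjusted p under 0.05, where 1.57% of all genes rose, 1.14% fell and 18.8% had an unadjusted p under 0.05. A count of 0 in 11 is near that background and is no result about these genes. A list of 11 genes around serum response factor holds the factor and its cofactors, the ternary complex genes Elk1, Elk3 and Elk4, the target genes Vcl, Acta2 and Tagln, and Nab1 and Nab2, which encode corepressors of EGR proteins. Of these 0 passed for TNF, and 5 had an unadjusted p under 0.05: Elk3, Mrtfa, Vcl, Nab1 and Nab2, named after their values were seen. Map3k8, which encodes the kinase TPL2, was at or under the floor on both untreated arrays and reached 8.01 log2 with TNF in wild-type and 6.79 in FAN -/- cells. Of 15 fitted MAP kinase phosphatase and feedback genes 0 passed for TNF in limma (5 at an unadjusted p under 0.05, beside 18.8% of all genes). Spry1, an inhibitor of growth factor signalling to ERK, was higher in FAN -/- cells, at 9.42 and 9.13 log2 in wild-type against 10.94 and 10.69 in FAN -/- cells (1.54 log2, limma adjusted p = 0.009). It was the 1 gene of these 15 called by genotype, where 2.94% of all genes fitted were higher and 3.67% lower. Dusp4, a nuclear MAP kinase phosphatase, lay at 7.07 log2 in untreated wild-type cells and below the floor with TNF, against 7.96 and 8.18 in FAN -/- cells, and did not pass (limma adjusted p = 0.056).

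Of 17 fitted genes known as AP-1 targets in fibroblasts, 5 rose with TNF and 0 fell, where 1.57% and 1.14% of all genes did. At least 2-fold higher were 9 of the 17 in wild-type cells (2.2% of all genes) and 6 in FAN -/- cells (1.35%). The median difference with TNF was 1.16 log2 for wild-type and 0.68 in FAN -/- cells, beside -0.03 and 0.01 over all genes. The list was chosen with earlier results of these data known. These counts therefore describe the genes listed and are no test of AP-1 targets as a class. Many of the listed genes are also known NF-kB targets. Those that rose were the collagenase gene Mmp13 (2.8 ± 0.31 log2, SE, limma adjusted p = 0.028), the EGF receptor ligand gene Ereg (2.03 log2, limma adjusted p = 0.010), the gelatinase gene Mmp9 (1.65 log2, limma adjusted p = 0.037), the protease inhibitor gene Timp1 (1.0 log2, limma adjusted p = 0.025) and the hyaluronan receptor gene Cd44 (0.95 log2, limma adjusted p = 0.017).

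Some targets with large differences did not pass. Lif was 8.85-fold higher with TNF in wild-type and 2.97-fold higher in FAN -/- cells (limma adjusted p = 0.063), and the stromelysin gene Mmp3 went from 12.01 to 14.04 log2 in wild-type and from 6.48 to 11.64 in FAN -/- cells (limma adjusted p = 0.10). By genotype Mmp13 alone was called on this list, lower in FAN -/- cells with 8.65 and 12.06 log2 in wild-type against a value below the floor and 8.46 in FAN -/- cells (-2.99 log2 with low values raised to the floor, limma adjusted p = 0.019). None of the 7 FOS and JUN genes was called by genotype in the same fit, where 2.94% of all genes were higher and 3.67% lower. A count of 0 in 7 is near that background and is no result about these genes.

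**Figure D4:**
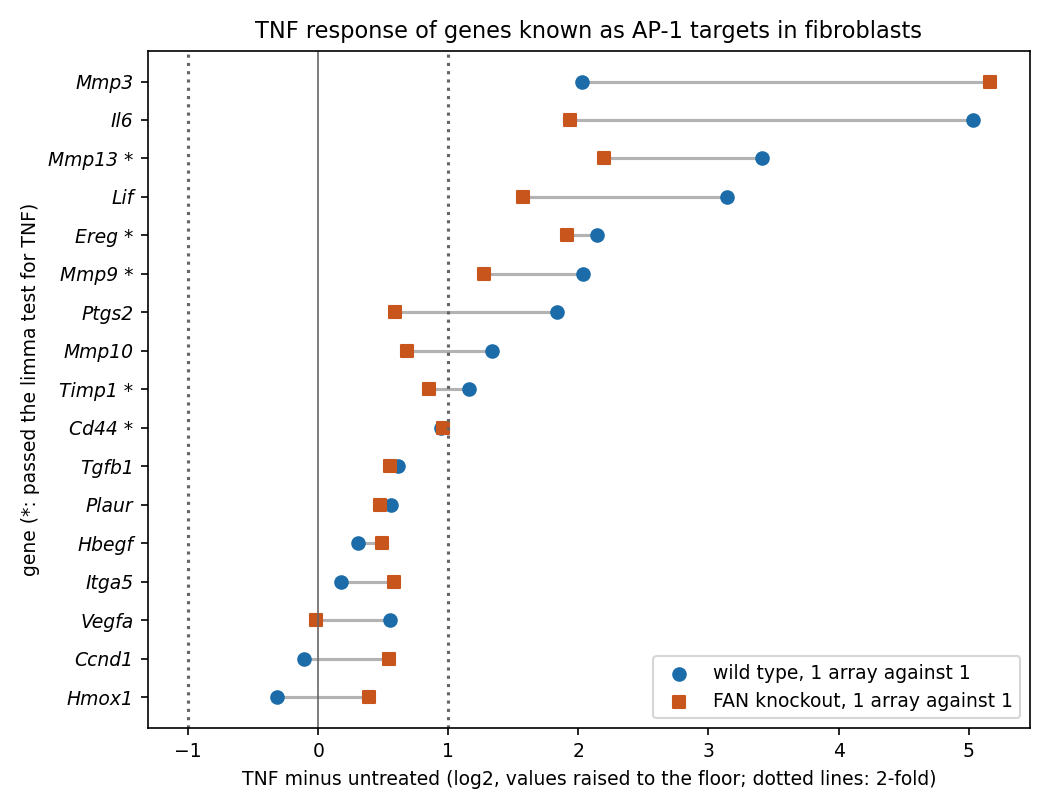
TNF minus untreated (x axis, log2, low values raised to the floor) of the 17 AP-1 target genes above the floor (y axis), in wild-type cells (circles) and FAN knockout cells (squares), each point 1 array against 1 with no error bar; asterisks mark genes past the limma test for TNF and dotted lines a 2-fold difference. Of the 17 genes, 9 lie at or beyond 2-fold in wild-type and 6 in FAN -/- cells, all of them on the higher side.

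Of 11 fitted genes of the MYC network 0 were called for TNF in limma (2 at an unadjusted p under 0.05, Mycl and Mxd4, beside 18.8% of all genes). Mycl, a relative of Myc, came nearest, going from 6.30 to 7.25 log2 in wild-type and from 7.37 to 8.94 in FAN -/- cells (1.26 log2, limma adjusted p = 0.051), and it was higher in FAN -/- cells (1.38 log2, limma adjusted p = 0.028). Mxi1, an antagonist that competes for MAX, was lower in FAN -/- cells (-0.60 log2, limma adjusted p = 0.048). Of 20 MYC target genes, mostly of ribosome production and metabolism, 0 passed for TNF in limma, and 9 of the 20 had an unadjusted p under 0.05, beside 18.8% of all genes. Their median TNF difference was 0.17 log2 on the wild-type arrays and 0.30 in FAN -/- cells, beside -0.03 and 0.01 over all genes. Odc1, the first enzyme of polyamine synthesis, was higher in FAN -/- cells (0.71 log2, limma adjusted p = 0.032). By genotype 1 of the 11 network genes was thus higher and 1 lower, and 1 of the 20 target genes was higher and 0 lower. Of all genes fitted, 2.94% were higher by genotype and 3.67% lower.

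The genes whose 4-array pattern lay closest to each member with a range of at least 1 log2 were found by the Euclidean distance between mean-centred profiles, over 4 arrays only. Raph1, Irf1 and Gsdmd lay closest to Fosl1 (distances of 0.20, 0.21 and 0.23 log2), Daam1, Mapk6 and Mvp to Myc (0.085, 0.12 and 0.12), Npr3, Nrn1 and Alcam to Fosb (0.12, 0.20 and 0.26), and Bcat1, Arhgap27 and Specc1 to Atf3 (0.092, 0.097 and 0.11). With 4 points a close pattern is a weak description.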

How the data were processed

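Per the values, which run from 2.79 to 14.4, the authors deposited log2 probe set values, 45101 on each of 4 arrays. MAS5 is named in the submitters' processing notes, without a version or role. The values are log2 with near-equal medians and ranges on the 4 arrays, and whether MAS5 made them is unknown; the summary and the normalization between arrays are not given in these sources. How far they compressed low values or differences is unknown. Probe sets were named from GEO's platform annotation: 34945 name 1 gene, 932 several and 9160 are unnamed here. A gene is its single-gene probe set of highest mean. Low values were raised to the floor of 6.27 log2, which 12224 genes exceeded on 1 array or more. The additive fit used lmFit and eBayes with an intensity trend (limma 3.58.1, R 4.3.3) on 11817 genes exceeding the floor on 2 arrays or more. It had 1 residual degree of freedom, a prior of 3.52 degrees and Benjamini-Hochberg adjustment. A run on simulated data drew its variances from the fitted prior and gave both genotypes the same TNF change. That run therefore cannot check the p-values where responses differ between genotypes. Separate cell preparations are not stated in the labels, and no condition has a spread between replicates. The p-values rest only on the difference between the TNF responses of the genotypes on these arrays, moderated by the prior over all genes. They do not measure the spread between cell preparations. For the other lists, genes called in the fit could be named. So could up to 4 genes of largest difference among those at least 2-fold apart on some pair of arrays. Outside this rule, Mxd4, Elk3, Mrtfa, Vcl, Nab1 and Nab2 were named for an unadjusted p under 0.05, after their values were seen. Others in the figure are shown as the whole list. The members and lists were chosen with earlier results of these data known. Alternatives were quantile normalization, median centring, other floors, the mean of a gene's probe sets, no trend, and a fit of all probe sets. Some list genes are not analysed here.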

Additional observations from a re-analysis of the deposited data

Results flagged for a closer look

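Junb stood out because its TNF response had opposite signs in the genotypes: -0.40 log2 in wild-type cells and 0.19 log2 in knockout cells, a difference of 0.59 log2. Each response is 1 array against 1 and the difference was not tested. It lay between 0.57 and 0.64 log2 under the scaling alternatives, and 785 of 12224 genes had a difference of responses at least as large in either direction.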

How the results depend on the processing

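All 10 genes lie above the floor on every array, so the 3 alternatives of the floor leave their pairwise values as they are, and the mean of probe sets leaves those of the 6 genes with 1 probe set. The counts of the 10 genes at least 2-fold apart stayed within 1.5 times under the 3 alternatives that could move them (quantile normalization, median centring and the mean of probe sets), although with median centring Myc in knockout cells lay just under 2-fold (0.998 log2). Of the 460 alternative values for single genes, 180 could not change; of the other 280, 268 kept their side of the threshold, 9 lost it, 3 gained it and 0 of the called ones reversed. For TNF the number of the 10 genes called in limma was 2 to 4, except with the mean of all probe sets of a gene, where it was 0, as it was for genotype; the cause was not tested. Over all genes the limma calls for TNF were 186 higher and 135 lower, against 405 and 518 with median centring, 125 and 71 with no floor and 0 and 0 with the mean of all probe sets. For genotype they were 347 and 434, against 532 and 980 with median centring and 92 and 106 with the mean. The response in knockout cells was the higher or less negative one for 9 of the 10 genes under quantile normalization, median centring and the mean of probe sets. Of all genes 55.8% to 67.4% lay on that side under these alternatives, and 51.9% with no floor. Signs of genotype differences under 0.06 log2 (Fos and Fosl2 untreated, Fosl1, Jun and Myc with TNF) turned under at least 1 alternative. No paired analysis was possible because each condition has 1 array and the labels give no replicate numbers. Leaving out an array was not possible in the additive fit, which then has no residual degree of freedom.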
